A study of Mus musculus with 4 samples.

Results

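Mesonephric duct-like cells of urogenital sinus (UGS) explants were examined in droplet-based scRNA-seq data of mouse embryos. In the explant library, cells in which over 1000 genes were detected, and in which mitochondrial genes took under 7.5% of UMIs (unique molecular identifiers, each standing for 1 captured transcript), were kept, and those with at least 2 *Pax2* UMIs and at least 1 *Epcam* UMI were chosen. This gave 114 cells, which were 1.78% (exact binomial 95% interval 1.47 to 2.13%) of the 6417 *Epcam*-positive cells that passed the filter, out of 7474 cells in the explant library and 19148 cells in all 4 libraries of the series. The other 6303 *Epcam*-positive explant cells served for comparison.

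The mesonephric (Wolffian) ducts are paired epithelial tubes of mesodermal origin, which androgens maintain and which form the epididymis, the vas deferens and the seminal vesicle. They enter the UGS, an endodermal tube whose epithelium buds into the prostate. The Müllerian ducts, which form the oviducts and uterus in females, grow down beside them. *Pax2* and its paralog *Pax8* are transcription factors of the duct epithelium, *Epcam* encodes a cell surface adhesion protein of epithelia, and the *Hox* genes are transcription factors whose position within each cluster follows their order of expression from the front to the back of the embryo.

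UGS of ICR (CD-1) embryos at E15.5 were cultured with 10 µM dihydrotestosterone in all explants, and collected at days 0, 1, 3 and 6 of culture. The labels give no transgene for these embryos and do not give their sex. Only the central part of each explant was taken, to raise the share of branching prostate tissue, so duct tissue was sampled only as far as it lay there. Explants were pooled at each day, and live EPCAM+ cells were sorted. The other libraries came from adult mice over 8 weeks old of the same strain, which carried the P2-*Runx1*:RFP reporter. Adult runs 1 and 2 combined prostates of intact and castrated mice (castrated for over 4 weeks) and run 3 held intact mice only, and these runs were used only for cells chosen by the same rule. Each day was 1 pool in 1 library, so no test between groups was possible, and all intervals cover counting error only.

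Before the days were joined, the cells of each day were tagged with a lipid-anchored MULTI-seq oligonucleotide, and the 8 bases that differ between days are shown in capitals because the assignment of every cell to a day rests on them:
Day 0: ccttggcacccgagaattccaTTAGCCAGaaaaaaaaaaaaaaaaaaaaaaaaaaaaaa
Day 1: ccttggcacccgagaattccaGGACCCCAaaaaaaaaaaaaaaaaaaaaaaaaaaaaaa
Day 3: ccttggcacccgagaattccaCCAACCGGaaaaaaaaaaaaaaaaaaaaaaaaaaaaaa
Day 6: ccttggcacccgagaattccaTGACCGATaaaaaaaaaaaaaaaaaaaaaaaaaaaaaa
A cell was given a day where its count of 1 barcode, divided by the median of that barcode over cells, was at least 3 and at least 2 times the next highest. The run of adenines at the 3′ end is captured together with the cell's mRNA.

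Duct-like cells were found at every day, and their share of the *Epcam*-positive cells given a day was highest at day 0. There were 50 at day 0, 19 at day 1, 14 at day 3 and 26 at day 6, and 5 had no day. They made up 5.74% (4.29 to 7.5%) of the *Epcam*-positive cells of day 0, 2.05% (1.24 to 3.18%) of day 1, 1.31% (0.720 to 2.20%) of day 3 and 1.11% (0.729 to 1.63%) of day 6. The interval of day 0 did not overlap those of later days, whereas the intervals of days 1, 3 and 6 overlapped each other. These shares leave out cells with no day. A day was given to 95.6% of the duct-like cells but to 80.7% of the others, of which 1215 had none. From which days these 1215 came was not tested, so the share of day 0 could be lower than given. Whether the dissection or the sort took up the ducts to a different extent at each day was not tested.

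More UMIs were counted in the duct-like cells than in the other cells, with a median of 18719 UMIs and 4534 detected genes against 14954 UMIs and 3650 genes. A rule of at least 2 *Pax2* UMIs favours cells with more UMIs, so this direction is partly set by the choice. Within days the medians were 18953.5 against 18518 UMIs at day 0, 20707 against 17558 at day 1, 20863.5 against 17348 at day 3 and 13197 against 13584 at day 6. Shares of cells with a UMI were therefore compared after every cell was thinned to 5000 UMIs, which left out 1 duct-like cell and 59 others. A second barcode at a ratio of at least 3, which marks possible doublets, was seen in 11 of 114 duct-like cells (9.65%) and 417 of 6303 others (6.62%). As a measure of free RNA in the droplets, none of 161 mesenchymal cells with at least 2 UMIs each of *Col3a1* and *Col1a2* held a *Pax2* UMI (exact binomial 95% upper limit 2.27%), although their median was only 7997 UMIs. Of 197 *Epcam*-negative cells, 1 held a *Pax2* UMI. Since 6036 of the 6417 *Epcam*-positive cells also held none, these counts cannot exclude a low level of free *Pax2* RNA. All 114 cells with at least 2 *Pax2* UMIs that passed the filter were also *Epcam*-positive.

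The threshold on *Pax2* cuts through a gradient. Among *Epcam*-positive cells, 6036 held no *Pax2* UMI, 267 held 1, 85 held 2, 17 held 3, 10 held 4 and 2 held 5. Cells with 1 *Pax2* UMI, just outside the rule, resembled those with 2, just inside it. *Hoxb7* was at 109 CPM (UMIs of the gene per 1000000 UMIs of the group) in the former and 114 CPM in the latter, against 19.9 CPM in cells with no *Pax2* UMI, and the homeobox gene *Emx2* was at 45.6 and 65.0 CPM against 4.09 CPM. At least 4 of the 8 genes *Emx2*, *Cdh16*, *Pax8*, *Hoxb7*, *Hoxb8*, *Hoxb9*, *Cldn9* and *Tfcp2l1*, a set chosen after their values were seen, had a UMI in 87 of 114 duct-like cells (76.3%), in 143 of 267 cells with 1 *Pax2* UMI (53.6%), in 295 of 6036 with none (4.89%) and in 0 of 197 *Epcam*-negative cells. The comparison cells thus include cells with the same genes, and fold differences against them are smaller than against cells with no *Pax2* UMI.

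**Figure D1:**
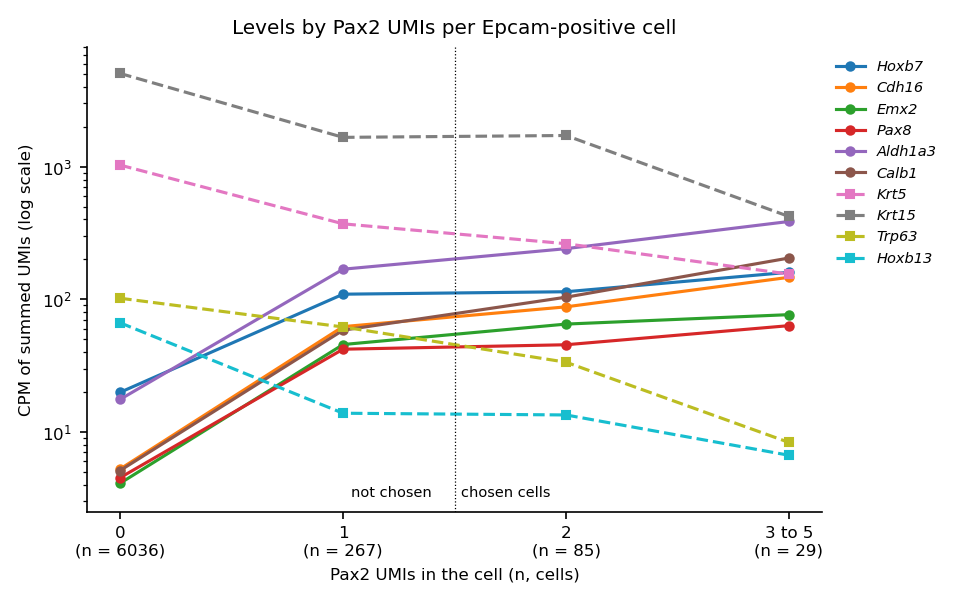
CPM of summed UMIs (log scale) of 10 genes in *Epcam*-positive explant cells with 0, 1, 2 or 3 to 5 *Pax2* UMIs (n, number of cells), with the 85 and 29 chosen cells to the right of the dotted line. Duct genes (circles, solid lines) rise most from 0 to 1 UMI, while of the genes of the UGS epithelium (squares, dashed lines) *Hoxb13* and *Krt5* fall most there and *Trp63* and *Krt15* fall most from 2 to 3 or more UMIs.

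Across all genes, the duct-like cells differed from the other *Epcam*-positive cells in both directions. Of 7954 genes whose CPM averaged at least 10 over both groups, 352 (4.43%) were at least 2-fold higher and 195 (2.45%) at least 2-fold lower in duct-like cells, 6.88% in either direction. The median log2 ratio of all compared genes was 0.17, and with median-of-ratios scaling, which sets it to −0.06, the counts were 243 higher and 295 lower. All of the 20 highest and 15 lowest genes named below lay in 1 direction at all 4 days, as the rule for naming them required. *Pax2* and *Epcam*, which defined the cells, are not counted as findings. Since the limit of 10 CPM was set on the mean of both groups, a gene could pass it through 1 group alone, and only 172 of the 352 higher genes reached it in the other cells and 115 of the 195 lower genes in the duct-like cells. The 2 cells with the most UMIs, 123386 and 112871, were both from day 0 and held 9.31% of the UMIs of the duct-like cells and 18.7% of those of day 0. Without them, a choice made after the data were seen, 408 genes were higher and 214 lower.

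**Figure D2:**
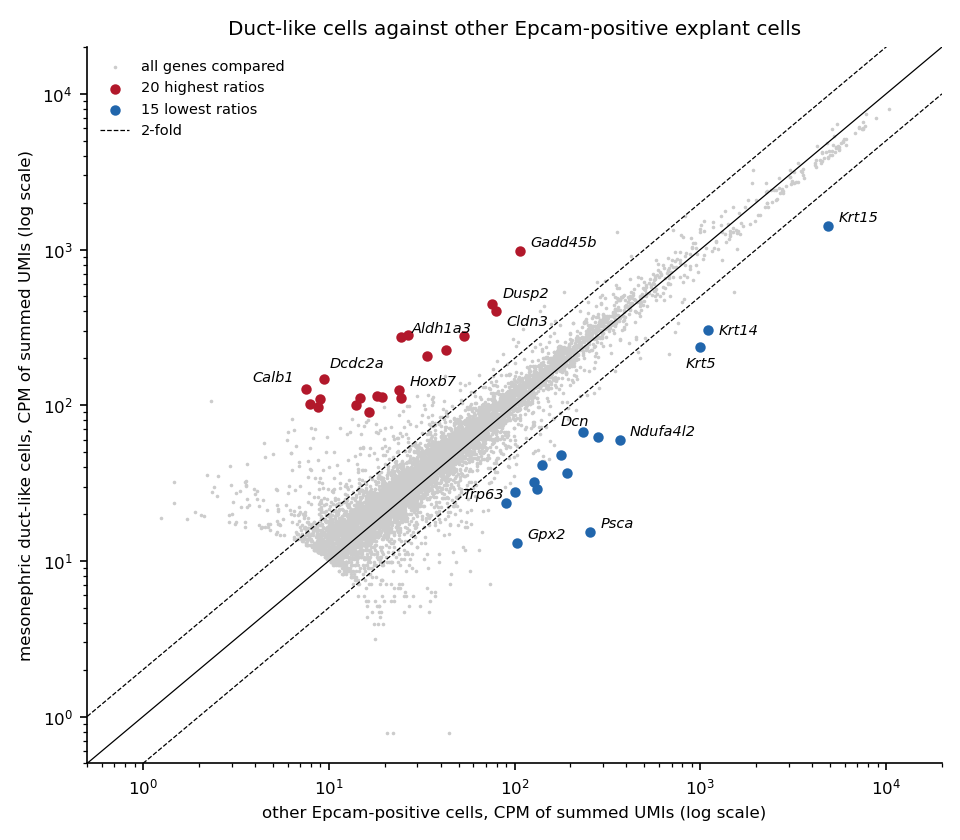
CPM of summed UMIs of every compared gene in duct-like cells (vertical axis) and other *Epcam*-positive cells (horizontal axis), both on log scales, with equality as a solid line and 2-fold as dashed lines. *Calb1*, at 128 against 7.58 CPM, lies farthest above the dashed lines among the 20 red genes, and *Psca*, at 15.4 against 256 CPM, farthest below among the 15 blue ones.

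Of the 7 genes by which the study recognised mesonephric cells, *Pax2* was left out because it chose the cells, and 5 of the other 6 were at least 2-fold higher in the chosen cells. *Hoxb7*, a *Hox* gene active in the duct, was at 125 CPM in duct-like cells and 24.0 CPM in the others, 5.20-fold higher (4.61 to 5.84), and *Wfdc2*, a secreted protease inhibitor, at 1287 and 358 CPM, 3.60-fold higher (3.47 to 3.73). *Pax8* was 7.94-fold (6.52 to 9.61), the endodermal and vascular transcription factor *Sox17* 10.7-fold (9.06 to 12.7) and the duct LIM-homeobox gene *Lhx1* 13.8-fold higher (10.8 to 17.6). *Gata3*, a zinc finger factor needed for duct growth, was at 178 and 134 CPM, a ratio of 1.33 (1.21 to 1.46), and lay below 1 at days 0 and 1 (0.884 and 0.391) and above 2 at days 3 and 6 (2.07 and 2.43). The median log2 ratio of the 6 was 2.68 against 0.17 for all genes. Of the 5 past 2-fold, *Pax8*, *Sox17* and *Lhx1* lay below 10 CPM in the other cells, and of the 6 only *Hoxb7*, *Wfdc2* and *Pax8* were higher at each of the 4 days. These markers were taken from the study, which chose them on the same library, so their direction is not independent evidence.

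Among further transcription factors of the mesonephric and kidney tubule epithelium, the genes past 2-fold upwards lay below 10 CPM in the other cells, so their number is a description only. *Emx2*, without which the ducts degenerate, was at 67.8 against 6.02 CPM, 11.3-fold higher (9.47 to 13.3), and *Tfcp2l1*, a factor of kidney tubule epithelium, at 49.2 against 6.23 CPM, 7.90-fold higher (6.48 to 9.56). *Mecom* was at a ratio of 1.58. Of 13 such genes, 5 could be compared, 3 were at least 2-fold higher and 1, *Osr1*, was lower (12.2 against 29.8 CPM). The nephron progenitor factors *Six2* and *Sall4* had 0 UMIs in duct-like cells, and *Eya1*, *Sall1* and *Wt1* had 1 UMI each. Thinned to 5000 UMIs, *Emx2* was seen in 26.5% of duct-like cells, 2.74% of the others and 1.33% of the mesenchymal cells.

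The receptor *Ret*, which receives the GDNF signal at the duct tip, was low, with 13 UMIs in 9.65% of duct-like cells (5.12 against 1.12 CPM). Among the other genes of that pathway, the co-receptor *Gfra1* (ratio 0.960) and the target factors *Etv5* (1.07) and *Etv4* (0.658) were within 2-fold, the feedback inhibitor *Spry1* was higher at 98.5 against 46.3 CPM (2.13-fold, 1.87 to 2.42), and the phosphatase *Dusp6* was lower at 51.6 against 134 CPM (2.60-fold, 2.19 to 3.12). The tip gene *Wnt11* had 2 UMIs. Over the list of 8 genes, 6 were compared, 2 were higher and 1 was lower past 2-fold, beside 4.43% and 2.45% of all compared genes. Only 1 of the 2 higher genes reached 10 CPM in the other cells.

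The genes with the highest ratios were led by *Calb1* and *Dcdc2a*. *Calb1*, a calcium-binding protein of the duct and the distal kidney tubule, was 16.8-fold (14.8 to 19.1) and *Dcdc2a*, a doublecortin domain protein of cilia, 15.7-fold higher (13.9 to 17.7). *Cdh16*, kidney-specific cadherin, was at 102 against 7.89 CPM, 12.9-fold higher (11.2 to 14.8). *Aldh1a3*, which makes retinoic acid, was at 275 against 24.6 CPM, 11.2-fold higher (10.3 to 12.2), and was seen in 54.9% of thinned duct-like cells and 6.58% of the others. The others among the 20 were *Plac8*, *Msx1*, the cell cycle inhibitor *Rprm*, the stress response gene *Gadd45b*, the creatine kinase *Ckb*, *Hoxb8*, *Sorbs2*, *Tubb2b*, the phosphatase *Dusp2*, *Gata2*, *Cldn8*, the chaperone *Clu*, *Crip1*, *Hoxb7*, *Cldn3* and *Nectin3*, with ratios from 12.3 for *Plac8* to 4.56 for *Nectin3*. The ratio of *Msx1* rested on the 26 cells with a *Sox17* UMI described below, without which it was at 5.76 CPM against 8.73 CPM in the other cells, in the opposite direction. *Gadd45b* and *Dusp2* had high levels, 979 and 444 CPM, against 107 and 75.9 CPM in the other cells. The 7 immediate early genes, which report dissociation stress, summed to 9634 against 8491 CPM. All 7 were within 2-fold, as were 7407 of all 7954 compared genes. Whether dissociation stress had a part in these values was not tested.

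Claudins, the proteins that seal tight junctions and set their permeability, were higher for 6 of the genes compared. Of 15 genes of the tight junction list, 9 could be compared, 7 were at least 2-fold higher (6 claudins and *Ocln*) and none was lower, with a median log2 ratio of 1.36, beside 4.43% of all compared genes higher. *Cldn9* and *Cldn10* lay below 10 CPM in the other cells. *Cldn3* was at 402 against 79.1 CPM (5.08-fold, 4.76 to 5.42), *Cldn7* at 622 against 278 CPM (2.24-fold, 2.13 to 2.36), *Cldn6* at 99.3 against 27.1 CPM (3.66-fold, 3.21 to 4.17), *Cldn8* at 90.6 against 16.4 CPM (5.53-fold, 4.80 to 6.34) and *Cldn9* at 29.9 against 2.41 CPM (12.4-fold, 9.52 to 16.1). *Cldn4* (1.79-fold) and *Tjp1* (1.44-fold) were within 2-fold, while the tight junction protein *Ocln* was 2.13-fold higher (1.77 to 2.54). *Cldn10* also passed 2-fold, at 18.9 against 7.34 CPM, but was detected in 4.39% of duct-like cells. *Cldn3* was seen in 69.9% of thinned duct-like cells, 15.4% of the others and 1.33% of the mesenchymal cells.

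Other genes of epithelial transport and adhesion did not share a direction. Of 16 genes of this list, 9 could be compared, 3 were at least 2-fold higher and 3 lower, beside 4.43% and 2.45% of all compared genes. All 3 of the higher genes lay below 10 CPM in the other cells. The water channel gene *Aqp5* was higher along with *Calb1* and *Cdh16*, at 24.0 against 7.70 CPM (3.12-fold, 2.37 to 4.05). Its ratio rested on few cells. *Aqp5* was detected in 4 of the 26 duct-like cells with a *Sox17* UMI described below (64.7 CPM) and in 5 of the 88 with none (5.19 CPM). The water channel *Aqp3* (2.11-fold, 1.57 to 2.90), the carbonic anhydrase *Car12* (2.18-fold, 1.49 to 3.31) and the chloride cotransporter *Slc12a2* (2.33-fold, 1.92 to 2.86) were lower. The epithelial cadherin *Cdh1* (33.5 against 45.1 CPM) and *Cdh3* (37.0 against 27.3 CPM) were within 2-fold, so that of the 3 cadherins named here *Cdh16* alone passed it.

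The *Hox* genes differed by cluster, and by place within the *Hoxb* and *Hoxd* clusters. The *Hoxb* genes *Hoxb2*, *Hoxb3*, *Hoxb4*, *Hoxb6*, *Hoxb7*, *Hoxb8* and *Hoxb9* were all between 4.96 and 7.13-fold higher in duct-like cells and higher at each of the 4 days, and *Hoxb5*, below the limit of 10 CPM, was at 10.6 against 2.16 CPM. *Hoxb8* was at 100 against 14 CPM (7.13-fold, 6.23 to 8.15) and *Hoxb9* at 81.5 against 13.4 CPM (6.08-fold, 5.24 to 7.04). *Hoxb13*, the last gene of the same cluster and a factor of the hindgut and prostate epithelium, was at 11.8 against 64.0 CPM, 5.42-fold lower (3.79 to 8.04). On chromosome 11 of GRCm38, *Hoxb13* (chr11:96194316-96197447) and *Hoxb9* (chr11:96271457-96276595) lie on the + strand with 74009 bases between them.

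In the *Hoxd* cluster the direction also turned, with *Hoxd8* 2.52-fold (2.03 to 3.1) and *Hoxd9* 3.63-fold higher (2.86 to 4.55), and *Hoxd11* 5.05-fold (3.15 to 8.68) and *Hoxd13* 6.37-fold lower (3.79 to 11.7). In the *Hoxa* cluster the 4 comparable genes, *Hoxa7*, *Hoxa9*, *Hoxa10* and *Hoxa13*, were all lower, from 3.36-fold for *Hoxa9* to 6.29-fold for *Hoxa13*. *Hoxc* genes had 10 UMIs in all in duct-like cells, and 6 of 9 had none. Over the 39 *Hox* genes, 16 could be compared, 9 were higher and 7 lower past 2-fold and none was within it, beside 4.43% and 2.45% of all genes, and each of the 16 kept its direction at all 4 days. Only 4 of the 9 higher genes reached 10 CPM in the other cells, and only 3 of the 7 lower genes in the duct-like cells. Most of the 16 thus passed the limit through the group where they were high, so these counts are a description only. Grouped after the values were seen, *Hox* genes of paralog groups 10 to 13 summed to 44.1 CPM in duct-like cells and 245 CPM in the others, and *Hoxb2* to *Hoxb9* to 458 and 78.4 CPM.

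**Figure D3:**
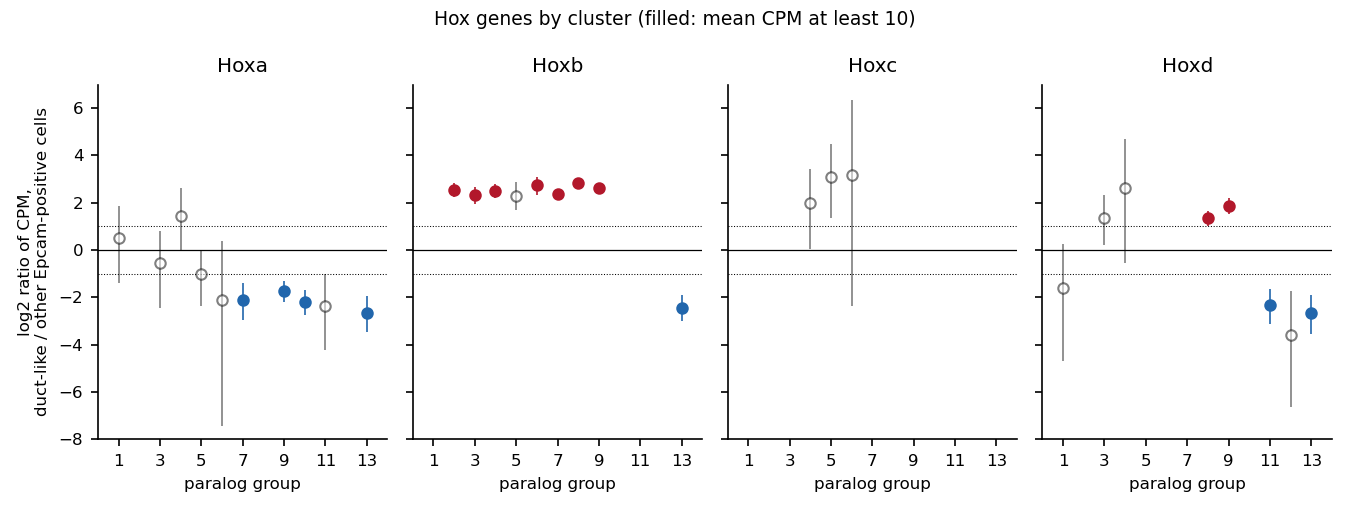
log2 ratio of CPM of duct-like cells to other *Epcam*-positive cells for genes of the 4 *Hox* clusters, by paralog group, with bars for 95% intervals of counting error and dotted lines at 2-fold; filled points have a mean of at least 10 CPM, and genes with 0 UMIs in either group are not drawn. *Hoxb2* to *Hoxb9* lie above 2-fold and *Hoxb13* below it, *Hoxd8* and *Hoxd9* above and *Hoxd11* and *Hoxd13* below.

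Genes of the prostatic urogenital epithelium were low in duct-like cells. Of 10 genes of this list, 9 could be compared, 8 were at least 2-fold lower and none higher, with a median log2 ratio of −1.86, beside 2.45% of all compared genes lower. The basal keratin *Krt5* was at 237 against 999 CPM (4.21-fold lower, 3.89 to 4.57), *Krt14* at 302 against 1100 CPM (3.64-fold lower, 3.39 to 3.91) and *Krt15* at 1413 against 4897 CPM (3.47-fold lower, 3.35 to 3.58). *Trp63*, the basal cell master factor, was at 27.6 against 100 CPM (3.63-fold lower, 2.87 to 4.66), and *Shh*, the signal from the UGS epithelium to its mesenchyme, at 29.9 against 88.9 CPM (2.97-fold lower, 2.37 to 3.77). The pioneer factor *Foxa1* was 2.73-fold lower (2.09 to 3.64). The exception was the luminal keratin *Krt8*, at 1204 against 810 CPM, with its partner *Krt18* at 1639 against 828 CPM (1.98-fold, 1.92 to 2.04). After thinning, *Krt5* was seen in 23.9% of duct-like cells and 74.8% of the others.

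The remaining genes with the lowest ratios named by the rule were *Psca*, *Gpx2*, *Ndufa4l2*, *Mgp*, *Vcan*, *Dcn*, *Lor*, *Krt4*, *Cbr2*, *Smoc2* and *Dapl1*. *Psca*, a surface protein of proximal luminal cells, was 16.7-fold lower (12.2 to 23.4), and 2 further proximal luminal genes, *Krt4* and *Nupr1*, were at 23.6 against 90.1 and 8.67 against 57.8 CPM. The proteoglycan gene *Dcn* was 4.49-fold lower (3.84 to 5.28), and other extracellular matrix genes of the list of mesenchymal markers were near 0 in duct-like cells (*Col1a1* 4 UMIs, *Col3a1* and *Col1a2* none).

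Haematopoietic, endothelial, neural and red blood cell genes left few transcripts, whereas urothelial genes did not. The 6 haematopoietic markers held 12 UMIs in all in duct-like cells (4.73 against 2.16 CPM in the others), of which *Ptprc* held 9 in 4.39% of the cells. The 4 endothelial markers held 2 UMIs (0.788 against 1.33 CPM), the 4 neural markers 15 (5.91 against 2.98 CPM) and the 5 red blood cell genes 4 (1.58 against 71.1 CPM). The 9 mesenchymal markers summed to 100 CPM against 334 CPM in the others, with *Vim* at 27.6 and 27.5 CPM. Of 9 urothelial markers, 6 could be compared, 5 were within 2-fold and *Upk1b* was lower (37.4 against 80.9 CPM), beside 2.45% of all compared genes lower. The 9 summed to 1285 UMIs, 506 CPM against 645 CPM in the others, and at day 3 to 1466 against 726 CPM. Their part in the results was not tested.

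Genes of steroid conversion were low or within 2-fold. *Srd5a1*, which makes dihydrotestosterone from testosterone, was at 50.4 CPM in duct-like cells and 83.7 CPM in the others, a ratio of 0.602 (0.502 to 0.717). *Srd5a2* had 0 UMIs in duct-like cells, below a floor of 1.18 CPM. None of the 5 comparable steroid pathway genes passed 2-fold, beside 6.88% of all compared genes. *Runx1*, the gene the series is about, was at 128 against 72.6 CPM (1.77-fold, 1.58 to 1.98), higher at each day (1.70, 1.5, 1.44 and 1.57-fold at days 0, 1, 3 and 6) but below 2-fold. Without the 26 cells that held a *Sox17* UMI, *Runx1* was at 81.8 CPM, near the 72.6 CPM of the others, with all days joined. At day 6, where no duct-like cell held a *Sox17* UMI, *Runx1* was still 1.57-fold higher. Its partner *Cbfb* was at 41.0 against 29.6 CPM.

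Single genes of several signalling lists passed 2-fold, beside 4.43% of all compared genes higher and 2.45% lower. With so few genes in each list, these counts are a description only. Among WNT genes, 4 of 13 compared were at least 2-fold higher and none lower, namely *Wnt7a* (13.9-fold, 11.0 to 17.3), *Wnt7b* (2.14-fold), the feedback inhibitor *Nkd1* (5.36-fold, 4.14 to 6.85) and the target factor *Sp5* (2.59-fold, 1.96 to 3.36). *Wnt9b*, the signal of the duct to the nephron and Müllerian progenitors, held 33 UMIs in 17.5% of duct-like cells (13 against 0.658 CPM), and *Wnt4* was lower within 2-fold, 165 against 252 CPM. Among 10 BMP genes compared, the antagonist *Nog* (59.5 against 5.96 CPM, 9.97-fold, 8.31 to 11.9), *Fst* (3.27-fold, 2.35 to 4.44) and the receptor *Bmpr1b* (6.53-fold, 4.85 to 8.66) were higher and *Bmp7* was lower (20.5 against 45.0 CPM). In the retinoid list *Aldh1a3*, *Aldh1a1* (2.08-fold), *Crabp2* (2.95-fold) and the retinol receptor *Stra6* (3.90-fold, 2.89 to 5.17) passed 2-fold upwards among 9 compared. Only 1 of the 4 higher WNT genes, none of the 3 higher BMP genes and 3 of the 4 higher retinoid genes reached 10 CPM in the other cells. The rest passed the limit through the duct-like cells alone. In the FGF, hedgehog and Notch lists, with 7, 3 and 8 genes compared, 1 gene each passed 2-fold, all downwards: *Spry2*, *Shh* and *Jag2*. All 12 proliferation genes were within 2-fold, as were 7407 of all 7954 compared genes, with 1032 against 865 CPM in sum.

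The duct-like cells of day 6 differed from those of day 0. Of 3031 genes averaging 50 CPM or more over duct-like cells of days 0 and 6, 190 (6.27%) were at least 2-fold higher at day 6 and 158 (5.21%) at least 2-fold lower. In the other *Epcam*-positive cells, with 2762 genes compared, these counts were 77 (2.79%) and 70 (2.53%), summed over more cells. The make-up of the duct-like cells also differed, since in the clustering described below 48 of 50 cells of day 0 fell in the larger group and 21 of 26 of day 6 in the smaller, and cells with a *Sox17* UMI went from 15 to 0. A change within cells and a change in which cells were present cannot be told apart. Without the 26 *Sox17* cells the counts were 212 higher and 218 lower of 3099 genes, and without the 2 cells with the most UMIs 211 and 215 of 3078. The pool and the day cannot be told apart, and the duct-like cells had a median of 18954 UMIs at day 0 and 13197 at day 6.

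For several duct genes, days 0 and 6 were within counting error when all duct-like cells were summed. *Cdh16* was at 106, 101, 89.6 and 101 CPM in duct-like cells of days 0, 1, 3 and 6, and *Emx2* at 68.2, 64.9, 76.3 and 63.5 CPM. *Hoxb8* was at 105, 82.8, 106 and 113 CPM, and *Aldh1a3* at 309, 150, 332 and 313 CPM. The ratios of day 6 to day 0 were 0.952 (0.659 to 1.35) for *Cdh16*, 0.931 (0.581 to 1.45) for *Emx2*, 1.07 (0.753 to 1.5) for *Hoxb8* and 1.01 (0.825 to 1.23) for *Aldh1a3*, although *Aldh1a3* was lower at day 1. Without the *Sox17* cells *Cdh16* and *Aldh1a3* were lower at day 6, with ratios of 0.586 (0.404 to 0.836) and 0.593 (0.483 to 0.725), while *Emx2* (0.810, 0.491 to 1.31) and *Hoxb8* (0.808, 0.560 to 1.15) stayed within counting error.

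Other genes were lower at later days. *Lhx1* was at 63.4 CPM at day 0, where 35 of 50 cells held a UMI, at 20.1 CPM at day 1, and had no UMI in the 14 and 26 cells of days 3 and 6, at least 8.99-fold lower at day 6 than at day 0 taking 3 UMIs as the floor. *Sox17* (93.6, 94.0, 36.5 and 0 CPM) and *Wnt7a* (53.1, 73.8, 13.3 and 0 CPM) were at least 13.3-fold and 7.53-fold lower at day 6. In the 35 cells of day 0 with no *Sox17* UMI, *Wnt7a* was at 1.43 CPM, *Msx1* and *Dlx5* at 8.56 CPM each, and *Lhx1*, *Dcdc2a* and *Calb1* at 85.6, 435 and 184 CPM, so the day 0 values of *Wnt7a*, *Msx1* and *Dlx5* came mostly from the *Sox17* cells. *Calb1* rose from 102 CPM at day 0 to 349 CPM at day 1 and stood at 123 and 4.71 CPM at days 3 and 6. *Dcdc2a* (242, 116, 49.8 and 2.35 CPM), *Msx1* (169, 73.8, 3.32 and 2.35 CPM) and *Nog* (105, 29.1, 3.32 and 2.35 CPM) were lower at each later day, with 1 UMI of *Msx1* and of *Nog* left at day 3 and 1 UMI of each of the 3 at day 6. *Pax8* was at 53.9 and 23.5 CPM at days 0 and 6 (ratio 0.436, 0.200 to 0.852). The others among the 10 lowest were *Dlx5*, *Camk2n1*, *Klk8*, *Pmepa1*, *Ovol1* and *Msx2*. In the other *Epcam*-positive cells *Calb1*, *Dcdc2a*, *Lhx1* and *Wnt7a* were also lower at day 6 than at day 0, with ratios of 0.00351, 0.0177, 0.0149 and 0.0267.

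Other genes increased. *Crip1*, a LIM domain protein, was at 43.6, 145, 299 and 1134 CPM, 26.0-fold higher at day 6 than at day 0 (19.6 to 35.0) against 4.13-fold in the other cells, and held a UMI in 24 of 26 cells of day 6. The chemokine *Cxcl12* (45.5-fold, 14.6 to 229), the BMP and WNT antagonist *Sostdc1* (30.4-fold, 16.8 to 60.5), *Sct* (25.6-fold), *Enho* (21-fold), *Klf2* (17.5-fold), *Apoe* (16-fold), *Upk3a* (12.7-fold) and *Fxyd4* (12.1-fold) followed. *Crisp1*, an androgen-regulated gene of the epididymis, had no UMI at day 0 and 74 UMIs at day 6, but all 74 came from 2 cells, and *Upk3a* also came from 2 cells of day 6. The values at day 0 depend on the 2 cells with the most UMIs. Without them *Enho* was 119-fold (32.2 to 999) and *Upk3a* 113-fold higher (19.4 to 4570) at day 6. *Krt5* (118 to 499 CPM, 4.22-fold, 3.41 to 5.24) and *Trp63* (10.3 to 68.2 CPM, 6.62-fold, 3.33 to 13.9) were also higher at day 6 but remained below the other cells, which held 1285 and 131 CPM. Of the *Krt5* UMIs of day 0, 66 and 36 came from these 2 cells, without which *Krt5* was at 45.9 CPM and *Trp63* at 4.88 CPM at day 0, so that day 6 was 10.9-fold (7.90 to 15.3) and 14-fold (5.35 to 46.3) higher. At day 6 *Krt5* also lay mostly in few cells, with 54, 48, 31, 24, 20 and 19 UMIs in single cells and none in many others. Those cells were kept in both comparisons, so the *Krt5* ratios do not show a rise shared by the cells.

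**Figure D4:**
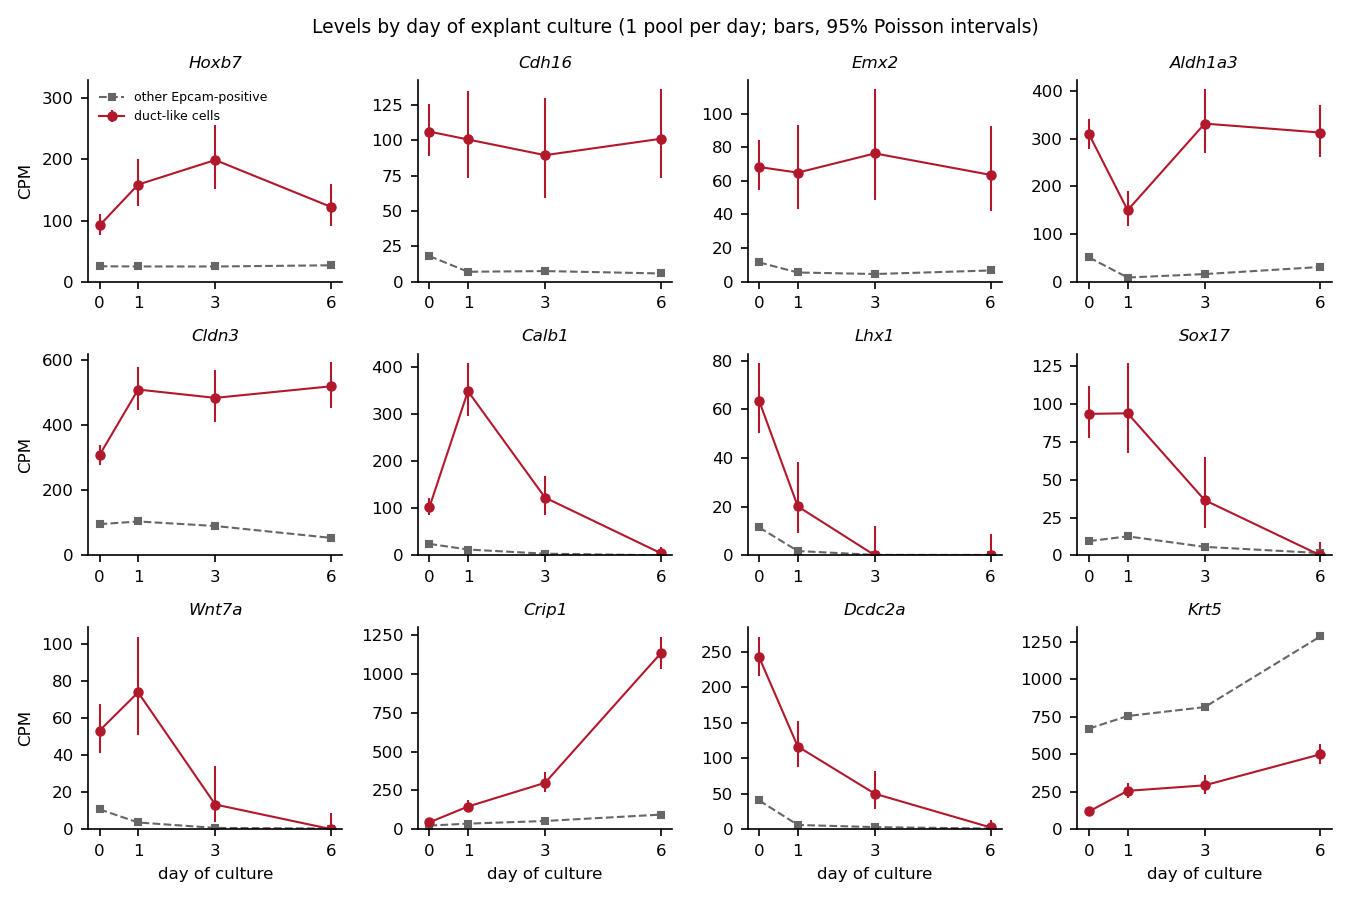
CPM of summed UMIs (each axis from 0) of 12 genes in duct-like cells (red, with 95% Poisson intervals) and other *Epcam*-positive cells (grey, no bars) at days 0, 1, 3 and 6, with 1 pool per day. *Cdh16* and *Emx2* stay between 63 and 107 CPM, *Lhx1*, *Sox17* and *Wnt7a* reach 0 at day 6, and *Crip1* is highest at day 6.

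The seminal vesicle secretion genes, products of the adult derivative of the duct, had no UMI for 7 of the 8 genes of the list. *Svs1*, *Svs2*, *Svs3a*, *Svs3b*, *Svs4*, *Svs5* and *Svs6* had no UMI in any duct-like cell or other *Epcam*-positive cell of the explants, which is below 1.18 and 0.0260 CPM. *Pate4* held 20 UMIs in 2 duct-like cells and 44 UMIs in the others.

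The duct-like cells were not uniform. Ward clustering on 10 principal components of the 1000 most variable genes divided them into 36 and 78 cells, and this division followed the day, since 30 of the 36 were from days 3 and 6 and 65 of the 78 from days 0 and 1. The genes leading the 36 were *Ly6d*, *Foxq1*, *Upk3a*, *Sprr1a*, *Upk1b*, *Ndufa4l2*, *Krt14*, *1600014C10Rik*, *Tspan8* and *Cbr2*, of which *Ly6d* came to 86.1% from 1 cell. *Foxq1*, *Upk3a* and *Upk1b* are markers of urothelium and *Krt14* of basal cells, and no gene of the duct lists is among the 10. The 9 urothelial markers summed to 1191 CPM in the 36 cells and 156 CPM in the 78, a second barcode was found in 6 of 36 cells (16.7%) and 5 of 78 (6.41%), and their part in the division was not tested. Of the urothelial UMIs of the 36 cells, 37.5% lay in 3 cells. Duct genes were found in both groups, with lower values in the 36 cells, where *Hoxb7* held a UMI in 27 of 36 against 64 of 78 (107 against 134 CPM), *Pax8* in 13 against 52 (24.5 against 62.5 CPM) and *Emx2* in 16 against 60 (37.3 against 83.3 CPM). At least 4 of the 8 duct genes given above had a UMI in 21 of 36 (58.3%) and 66 of 78 cells (84.6%). *Krt15* was at 3036 CPM in the 36 and 583 CPM in the 78, and *Krt5* at 489 and 108 CPM. The 2 cells with the most UMIs were both among the 36. They held 628 and 714 *Krt15* UMIs and 66 and 36 *Krt5* UMIs, so these values do not show a level shared by the 36. Those leading the 78 were *Hist1h2ae*, *Nusap1*, *Cenpf*, *Cxcl1*, *Dcdc2a*, *Calb1*, *Tpx2*, *Ube2c*, *Top2a* and *Hist1h1b*, of which most act in the cell cycle. With 500 variable genes, 110 of 114 cells stayed in the same group. With 3 groups the 78 cells separated into 36, led by *Edn1*, *Pnoc*, *Dcdc2a*, *Bicc1* and *Calb1*, and 42, led by mitotic genes together with *Wnt7a*, which held a UMI in 22 of the 42 and in none of the 36. *Sox17* likewise held a UMI in 23 of the 42 and in none of the 36.

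*Sox17*, *Wnt7a* and *Msx1* marked a separate set of the duct-like cells, a comparison made after the data were seen. A *Sox17* UMI was present in 26 of 114 cells, 15 at day 0, 7 at day 1, 2 at day 3, 0 at day 6 and 2 with no day. Of these 26, 18 held UMIs of both *Wnt7a* and *Msx1*, compared with 3 of the 88 cells with no *Sox17* UMI. *Wnt7a* and *Msx1* are known from the Müllerian duct epithelium, where *Wnt7a* patterns the female tract. In the list of 6 Müllerian duct genes, these 2 were the only ones past 2-fold upwards in all duct-like cells, at 13.9-fold and 11.2-fold, while *Hoxa10* was 4.60-fold lower (3.22 to 6.83) and the receptor of the Müllerian inhibiting hormone, *Amhr2*, had no UMI. *Wnt7a* and *Msx1* both lay below 10 CPM in the other *Epcam*-positive cells.

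Several of the genes that led the duct-like cells as a whole were low or at 0 in the *Sox17* cells. *Calb1* and *Dcdc2a* held no UMI in any of the 26, against 28 and 49 of the 88 others, which sets them at least 50-fold and 57.9-fold lower with 3 UMIs as the floor. *Hoxb9* was at 3.73 against 118 CPM, *Cldn8* at 4.98 against 130 CPM, *Aldh1a3* at 26.1 against 391 CPM and *Tfcp2l1* at 2.49 against 70.9 CPM. *Gata3* held a UMI in 3 of the 26 cells (11.5%) and 81 of the 88 (92.0%). The 2 cells with the most UMIs, which were among the 26 and in the group of 36, held 27 and 31 of its UMIs, and 1 UMI was left without them (1.76 against 226 CPM). One of these 2 cells carried a second barcode. *Msx1* was at 297 against 5.76 CPM, *Dlx5* at 219 against 6.34 CPM and *Wnt7a* at 110 against 9.22 CPM, and *Meis1* and *Htra1*, named here after their values were seen, were 14.4-fold (8.94 to 24.3) and 8.76-fold higher (5.18 to 15.6). The RUNX gene *Runx1* was higher in the *Sox17* cells, 229 against 81.8 CPM (2.80-fold, 2.24 to 3.51), as was *Runx2* (29.9 against 4.03 CPM).

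Both sets held other duct factors. *Hoxb7* held a UMI in 80.8% of the *Sox17* cells and 79.5% of the others, *Emx2* in 80.8% and 62.5%, *Pax8* in 84.6% and 48.9%, and *Hoxb8* in 84.6% and 78.4%. The *Sox17* cells had the larger median, 22359.5 against 16932.5 UMIs, so higher shares in them may be read only beside this depth, while their lower shares of *Gata3*, *Hoxb9* and *Cldn8* go against it. Within days 0 and 1 alone, the ratios of *Sox17* cells to the others were 39.5 for *Msx1*, 9.75 for *Wnt7a*, 0.0304 for *Hoxb9*, 0.0394 for *Cldn8* and 0.456 for *Gata3*. Without the 2 cells with the most UMIs these were 48.5, 13.2, 0.0150, 0.0291 and 0.0114. The *Sox17* cells were given no cell type name of their own.

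**Figure D5:**
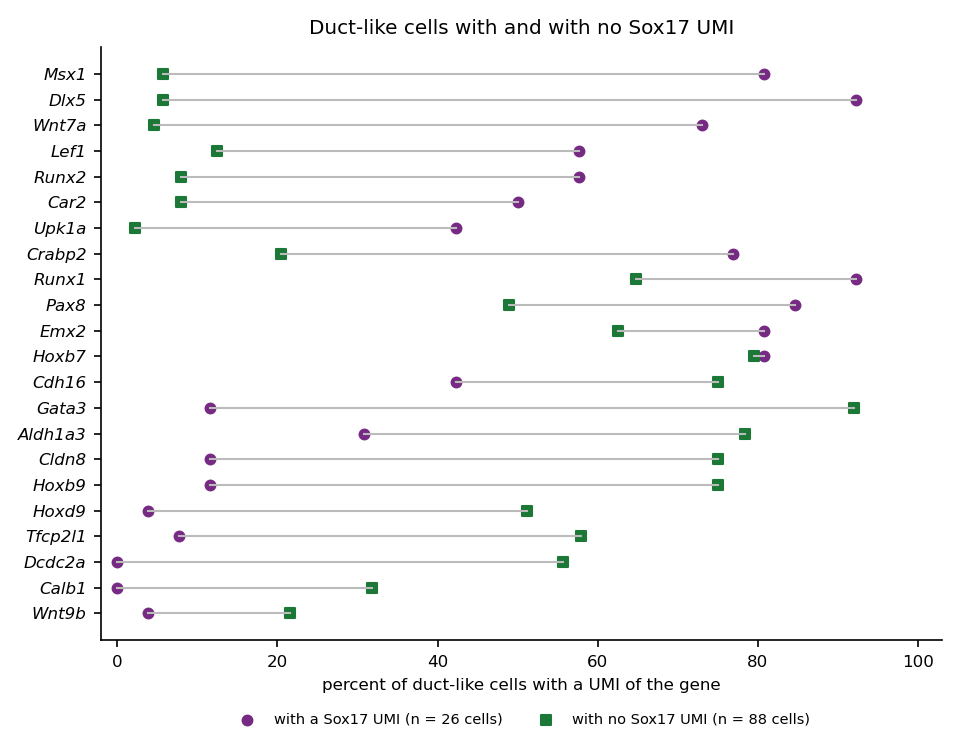
Percent of duct-like cells with at least 1 UMI of each of 22 genes, unthinned, among the 26 cells with a *Sox17* UMI (violet circles) and the 88 with none (green squares). *Msx1*, *Dlx5* and *Wnt7a* are mostly on the *Sox17* side, *Calb1*, *Dcdc2a*, *Hoxd9* and *Gata3* on the other, and *Hoxb7* is alike in both.

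Transcripts of *Xist*, expressed from the inactive X of female cells, and of the Y-linked genes *Ddx3y*, *Eif2s3y*, *Kdm5d* and *Uty* showed that embryos of both sexes had contributed. Of the 114 duct-like cells, 29 held *Xist* but no Y-linked UMI (25.4%, 17.7 to 34.4%), 69 Y-linked UMIs but no *Xist* (60.5%, 50.9 to 69.6%), 15 both and 1 neither. In the other *Epcam*-positive cells 30.5% held only *Xist*, 50.7% only Y-linked UMIs and 10.4% both. The *Sox17* cells held *Xist* alone in 16 of 26 (61.5%, 40.6 to 79.8%), and the duct-like cells with no *Sox17* UMI in 13 of 88 (14.8%, 8.11 to 23.9%). At day 0 these were 6 of 15 and 1 of 35. At day 6, where no *Sox17* cell was left, 8 of 26 duct-like cells held *Xist* alone.

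In the adult prostate libraries the same rule was applied to cells in which over 750 and under 7500 genes were detected and mitochondrial genes took under 10% of UMIs, limits chosen here. It found 2, 4 and 3 cells in runs 1, 2 and 3, against 1520, 3814 and 2142 other *Epcam*-positive cells. The study's methods set the upper limit on UMIs, and with fewer than 7500 UMIs, which kept 354, 1086 and 502 *Epcam*-positive cells, no cell was chosen in any run. The values below therefore hold only for the limit on genes. Runs 1 and 2 mixed intact and castrated mice, and the cells were not divided by castration. Too few for ratios within a run, these 9 cells and their 202107 UMIs are given together with the UMIs of each run. The seminal vesicle gene *Svs5* held 11189, 13892 and 5828 UMIs in the cells of runs 1, 2 and 3, 152934 CPM against 1258 CPM in the other adult cells, and *Pate4* and *Svs4* held 9108 and 7052 UMIs. *Hoxb7* held 6, 11 and 3 UMIs (99.0 against 4.81 CPM, 20.6-fold, 12.5 to 32.0), *Cldn3* 57, 161 and 49 UMIs (4.04-fold, 3.57 to 4.56) and *Plac8* 111, 91 and 98 UMIs (22.6-fold, 20.1 to 25.3). *Hoxb13* held 2 UMIs in all (9.90 against 332 CPM), and *Trp63* and *Psca* held none. *Lhx1*, *Calb1*, *Sox17*, *Msx1*, *Wnt7a*, *Dcdc2a* and *Pax8*, all higher in the explant duct-like cells, held no UMI either. These genes were at 1.82 CPM or less in the other adult cells, so their lack of UMIs says little. *Wfdc2* and *Tfcp2l1* were also higher in the explant duct-like cells but lay in the opposite direction here. Neither held a UMI, against 184 and 25.9 CPM in the other adult cells (upper limits of the ratio 0.099 and 0.704). Of the 20 highest genes of the explants, 10 could be compared in the adult cells and 9 of them were higher, and of the 15 lowest, 11 could be compared and all 11 were lower. The share of all genes in each direction was not counted for these 9 cells, so these counts are a description only. The large share of *Svs5* also lowers the CPM of other genes in them. *Gpx2* and *Lor* were lower on 1 UMI each, with intervals of the ratio from 0.00795 to 1.75 and from 0.00616 to 1.36. From 5 to 6 cell barcodes were shared between the explant library and each adult library.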

How the data were processed

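Libraries were made with the 10x Genomics 3′ v3 kit. The authors ran Cell Ranger 3.1.0 on mm10 (GRCm38) and deposited raw UMI counts of 31053 genes per cell, which are not normalized, and counts of MULTI-seq barcodes made with deMULTIplex. Genes with close paralogs share reads, so *Hba*, *Hbb* and *Svs3* genes are less certain. The duct-like cells held 2538740 UMIs and the other *Epcam*-positive cells 115513384.

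UMIs were summed over cells and scaled to CPM, and the ratio of both sums was given with an exact conditional 95% interval of 2 Poisson counts, which covers counting error only. Genes with a mean CPM of at least 10 were compared, at a fold of 2 with no test, since the explants were 1 library. Mitochondrial genes were left out of the naming rule and of comparisons between days. Named genes were those of the lists and, with a mean of at least 50 CPM, the 20 highest and 15 lowest ratios of 1 direction at all 4 days, the 10 highest and 10 lowest between days 6 and 0, and the 10 leading each group of duct-like cells. The members, lists and rule were chosen with earlier results of these data known. No doublet caller was used. Thinning, with seed 1, drew 5000 UMIs per cell without replacement. Mesenchymal cells were 161 in number, and 11 under 5000 UMIs were left out of thinned shares. The ratio and its interval were tested on simulated data.

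Positions came from GENCODE vM21 on GRCm38, matched by Ensembl ID for 30934 of 31053 genes. Python 3.11.15, numpy 2.4.6, scipy 1.17.1, pandas 2.3.3 and matplotlib 3.10.9 were used. Alternatives were other scalings, thinning, equal weight per cell, other filters, thresholds and comparison cells, other day rules and other clusterings, and leaving out each day, the *Sox17* cells, the cell or the 2 cells with the most UMIs was added after the data were seen, as was an adult limit of 7500 UMIs. Values of some genes of the lists are not reported here. The sequencing saturation and the authors' cell labels were not used here.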

Additional observations from a re-analysis of the deposited data

How the results depend on the processing

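The counts of 352 higher and 195 lower genes depend on depth and on the filter. They were 633 and 337 after thinning to 5000 UMIs, 2488 and 6748 with no filter on low values, 80 and 53 with a filter of 50 CPM, and 704 and 394 with at least 3 *Pax2* UMIs, which leaves 29 cells. With median-of-ratios scaling 295 genes were lower. Without 1 day at a time they lay between 350 and 393 higher and between 181 and 225 lower. The median log2 ratio of the study's mesonephric markers, 2.68, was 1.85 with the filter of 50 CPM, under which 3 of the 6 remained, 2.91 with at least 1 and 2.92 with at least 3 *Pax2* UMIs, 3.06 against cells with no *Pax2* UMI and 2.40 with the others weighted to the days of the duct-like cells. The number of duct-like cells was 381 with at least 1 *Pax2* UMI and 29 with at least 3. Under the other settings these 4 results stayed within 1.5 times or within their interval. Single genes moved more. *Msx1*, at a log2 ratio of 3.49, was at −0.60 without the *Sox17* cells, *Runx1* moved from 0.82 to 0.17 there, and with the others weighted to the days of the duct-like cells *Calb1* was at 3.11 in place of 4.07 and *Msx1* at 2.43. With at least 3 *Pax2* UMIs *Krt15* was at −3.52 in place of −1.79, *Trp63* at −3.57 in place of −1.86 and *Wnt4* at −1.85 in place of −0.61. The causes were not tested. No paired analysis was possible because the explants are 1 library and no replicate number is shared between groups that were compared. One library, 114 cells and 1 pool per day limit these data: days, pools and the sexes of the embryos in them cannot be told apart, and genes under 1.18 CPM in duct-like cells lie below the floor of 3 UMIs.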

Other observations

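Genes induced by hypoxia differed more between days than between cell groups. Of all compared genes 2.45% were at least 2-fold lower in duct-like cells. Of 8 genes of this list, 7 could be compared between duct-like and other *Epcam*-positive cells, 5 were within 2-fold, and the glucose transporter *Slc2a1* (72.5 against 148 CPM) and the peptide hormone gene *Adm* (34.3 against 77.7 CPM) were lower. In sum they stood at 1367, 2496, 1728 and 3976 CPM in duct-like cells of days 0, 1, 3 and 6, and at 1449, 3079, 2908 and 2962 CPM in the others. The glycolytic gene *Pgk1* was at 435 CPM at day 0 and 2019 CPM at day 6 in duct-like cells (4.65-fold, 4.17 to 5.18), against 2.84-fold in the others.

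The cyclin-dependent kinase inhibitors did not move as one. *Cdkn2b* was at 20.1 against 6.26 CPM in duct-like cells and the others (3.21-fold, 2.37 to 4.27), *Cdkn1a* at 247 against 138 CPM (1.79-fold, 1.65 to 1.94), and *Cdkn1c* at 459 against 796 CPM. Within the duct-like cells *Cdkn1c* was at 795 CPM in those with a *Sox17* UMI and at 303 CPM in those with none, and *Lef1*, a factor of WNT signalling, at 61.0 and 10.4 CPM.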
